A study of Mus musculus with 70 samples.

Results

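Animal identifiers of a 13-chemical mouse study carry the digit 1 or 2 before a hyphen, called set 1 and set 2 here. The comparison described here sets the untreated control lungs of set 1 against those of set 2 within each vehicle. It uses 18 of the 70 arrays. They were chosen by their title codes, FCON for plain rodent feed and CCON for corn oil, and by the digit before the hyphen in the animal identifier. No source used here says what that digit stands for. Each array holds total RNA from the right lung lobe of 1 adult female B6C3F1 mouse, the hybrid strain of many rodent cancer bioassays, aged 18 weeks. The feed controls of set 1 were animals 27, 28 and 29, and those of set 2 were animals 42, 43, 44 and 45. All of them were given feed with 0 ppm of any chemical on 7 days per week for 13 weeks. The corn oil controls of set 1 were animals 22, 24 and 25, and those of set 2 were animals 59, 60, 93, 95, 97, 99, 132 and 134. All of them received 5 ml/kg of corn oil by gavage, at a chemical dose of 0 mg/kg, on 5 days per week for 13 weeks. The water gavage controls belonged to set 2 only and do not enter this comparison. Animals of the series were killed with pentobarbital and exsanguination, and their tissue was kept in RNAlater.

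Whole lung RNA is a mixture from airway and alveolar epithelium, endothelium, stroma and immune cells. Levels of immediate early, oxidative stress and amino acid response genes are known to change quickly with handling and tissue state. Hepatocyte products such as albumin are made in the liver and mark other tissue in a lung sample. In such bulk RNA, fewer cells of a type and less RNA per cell cannot be told apart.

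All 18 arrays carried high signals of genes that define lung tissue. Sftpc, the surfactant protein of alveolar type II cells, lay between 14.36 and 14.45 on the log2 signal scale in set 1 controls and between 14.31 and 14.41 in set 2 controls. It was not called in either vehicle on the deposited scale, and was called higher in both with centred arrays (adjusted p = 0.046 and 0.012). Scgb1a1, the club cell secretory protein, lay at 14.24 to 14.29 in set 1 controls and at 14.21 to 14.37 in set 2 controls. Ager, the alveolar type I receptor, lay at 13.81 to 14.00 in set 1 controls and at 14.10 to 14.26 in set 2 controls, so its ranges did not meet. Cldn5, a tight junction gene of endothelium, lay at 11.60 to 11.92 in set 1 controls and at 11.64 to 12.22 in set 2 controls.

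The arrays of each set stood apart in their technical control probes, which bears on every result below. The probe sets for the Bacillus subtilis transcripts dap, lys, phe and thr, known as poly-A spike controls in Affymetrix protocols, averaged 3.47 ± 0.0296 in set 1 feed controls (SD, n = 3), against 7.28 ± 0.374 in set 2 feed controls (SD, n = 4). They averaged 3.51 ± 0.0503 in set 1 corn oil controls (n = 3), against 6.25 ± 0.373 in set 2 corn oil controls (n = 8). The mean difference within vehicle was -3.27, and an exact two-sided permutation test of the set labels within vehicle gave p = 0.000173, the smallest of its 5775 arrangements (0.00138 after Benjamini-Hochberg adjustment over 8 array measures). All 18 arrays of set 1 lay between 3.42 and 3.73, and all 52 of set 2 between 5.31 and 7.91, treated animals included. The RNA sent for labelling was recorded as 10 ug in set 1, and as 15 or 10 ul in set 2. The 3' minus 5' signal difference of beta-actin, a measure of how complete the labelled RNA is, was 0.62 and 0.549 in set 1 feed and corn oil controls, against 0.487 and 0.391 in set 2 (exact permutation p = 0.000693, adjusted 0.00277). The same measure of Gapdh pointed the other way, at 0.0158 and -0.00727 in set 1 against 0.0871 and 0.0425 in set 2 (exact permutation p = 0.244, adjusted 0.325). The RNA integrity number was 8.3 to 8.9 in the 5 set 1 controls that give one and 7.8 to 8.8 in the 10 set 2 controls that give one (exact permutation p = 0.0267, adjusted 0.0668). In the 5 measures other than the poly-A controls, beta-actin and RNA integrity, Gapdh included, the adjusted p lay between 0.0668 and 0.476. The sources used here do not say whether the Bacillus subtilis transcripts were added. Set and RNA handling cannot be told apart.

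**Figure D1:**
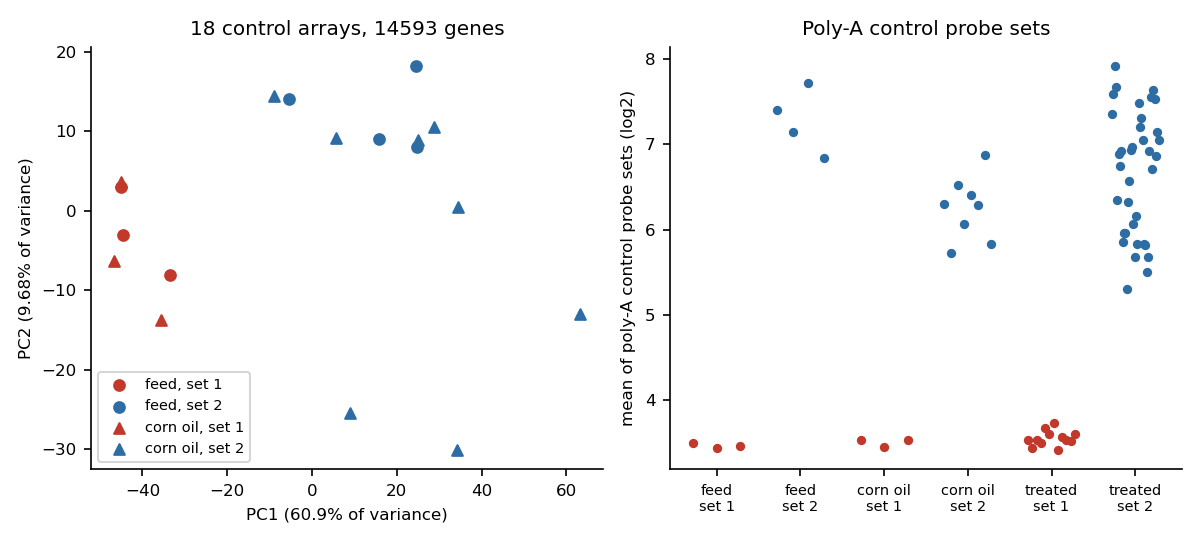
Left, the first 2 principal components of the 18 control arrays over the genes tested, with circles for feed and triangles for corn oil. Right, the mean log2 signal of the poly-A control probe sets on each array, with treated arrays at the right. The 6 set 1 controls (red) lie at -46.6 to -33.6 on the first component and the 12 set 2 controls (blue) at -9.01 to 63.2, and no set 1 array reaches the poly-A signal of any set 2 array.

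The untreated lungs split by set. The first principal component carried 60.9% of the variance of the 18 control arrays, and all set 1 controls lay on one side of all set 2 controls, whichever vehicle they had. Pairs of arrays correlated at 0.987 to 0.994 within set 1, at 0.935 to 0.994 within set 2 and at 0.888 to 0.982 between the sets, across the genes tested. No 2 arrays held identical values.

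Of 14593 genes tested, 6052 differed between set 1 and set 2 in the feed controls (41.5%), 1842 of them higher in set 1 and 4210 lower (12.6% and 28.8%; limma, Benjamini-Hochberg adjusted p under 0.05, n = 3 against 4). In the corn oil controls 8102 differed (55.5%), 2765 higher and 5337 lower in set 1 (18.9% and 36.6% of genes tested, n = 3 against 8). The same direction was called in both vehicles for 5197 genes (35.6%), which will be called agreed genes. Of these, 1701 were higher in set 1 (11.7% of genes tested) and 3496 lower (24%). The agreed genes made up 85.9% of the feed calls and 64.1% of the corn oil calls. The feed and corn oil comparisons share no array, though both take their spread from a fit over all 70. The median difference of all genes tested was -0.15 in feed and -0.16 in corn oil on the log2 scale, so differences below are to be read against that shift. With each array centred on the median of the genes tested, 4345 genes agreed, 52.9% of them higher in set 1, against 32.7% on the deposited scale. The RNA integrity number was tried as a covariate in the 15 control arrays that give one. This leaves 2 feed controls in set 2 and 2 corn oil controls in set 1. With it limma called 0 genes in feed (2224 at an unadjusted p under 0.05) and 3138 in corn oil. Without the covariate the same 15 arrays gave 856 and 4646. For single genes below, a call lost with this covariate is not set against that second fit. The covariate and the fewer arrays are thus not told apart there. With only the 10 ul feed controls of set 2 (animals 42 and 44) the feed calls numbered 3522, and with only the 15 ul ones (animals 43 and 45) they numbered 5248.

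**Figure D2:**
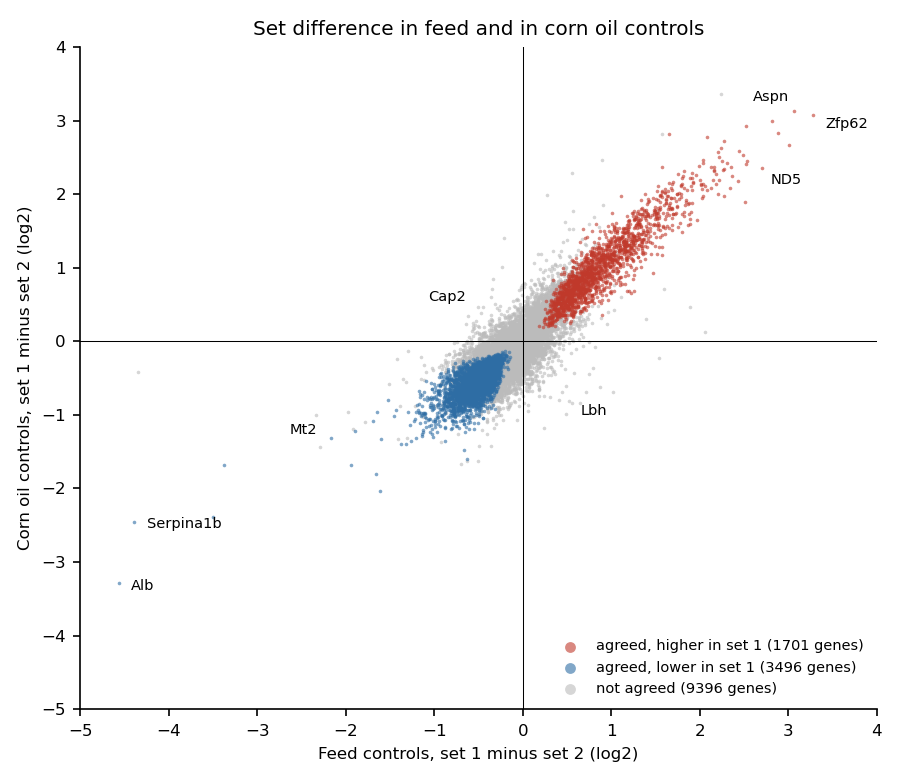
Each point is 1 gene, with the set 1 minus set 2 difference of feed controls on the x axis and of corn oil controls on the y axis, both in log2 units. Red points are the 1701 agreed genes higher in set 1, blue points the 3496 agreed genes lower in set 1, and grey points the rest. Labels name genes of the text, among them Lbh and Cap2, which were called in opposite directions in the vehicles.

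Calls in opposite directions were rare. Of the 5201 genes called in both vehicles, 4 had opposite signs, and they are named because they are so few. Lbh, a transcriptional cofactor of development, differed by 0.56 in feed (SE 0.219) and by -0.84 in corn oil (SE 0.194). Cap2, an actin-binding protein, differed by -0.51 in feed (SE 0.156) and by 0.46 in corn oil (SE 0.138). The other 2 were Bmp6, a bone morphogenetic protein, and Hsd17b12, an enzyme of fatty acid elongation. Each of the 4 lost its feed call in a fit of only the 18 control arrays (adjusted p = 0.0572 for Lbh, 0.0572 for Cap2, 0.0577 for Bmp6 and 0.0817 for Hsd17b12), and each lost a call when 1 array was left out, so none of them keeps opposite calls throughout. The difference of the set difference between vehicles, tested in its own contrast, was called for 0 of the 14593 genes (0%) by limma (743 at an unadjusted p under 0.05), and the smallest adjusted p was 0.094.

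Large differences ran mainly one way. At least 2-fold in both vehicles were 571 agreed genes (3.91% of genes tested), 531 of them higher in set 1 (3.64%) and 40 lower (0.274%), although lower calls were the more numerous at any size. In 3415 agreed genes (23.4%) all set 1 arrays lay beyond all set 2 arrays in both vehicles, 1119 above (7.67%) and 2296 below (15.7%). In 595 genes (4.08%) all 18 set 1 arrays, treated ones included, lay beyond all 52 set 2 arrays, 361 above (2.47%) and 234 below (1.6%).

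The treated animals, whose chemicals differ between sets and whose 48 arrays the selection did not use, carried the same split. The mean of the 4 treated groups of set 1 (12 arrays) differed from the mean of the 9 treated groups of set 2 (36 arrays) in 10918 genes (74.8%), 23.7% of genes tested being higher in set 1 and 51.1% lower. Of the agreed genes 5158 (99.2%) were called in the same direction there, and 1 in the opposite direction. The treated groups were exposed to different chemicals in the 2 sets, so this contrast holds the chemicals as well as the set.

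The 15 largest rises in set 1 held several zinc finger genes. Like the 15 largest falls, they were picked from agreed genes without overlap of arrays in either vehicle. Their calls and their separation were thus conditions of the choice. In 5 of the 15 (Zfp62, Aspn, Zfp946, AI987944 and Zfp51) the set 2 mean lay under the filter level of 4.25 in at least 1 vehicle, and in 3 of the 15 largest falls (Apoc3, Serpina1b and Serpina1c) the set 1 mean did. These genes passed the filter on their mean over all 70 arrays, to which the higher set contributes. No detection call was used, so their values show a direction, while the size of their difference and their rank are not well measured. Zfp62, a Krüppel-type zinc finger gene, measured 7.01, 7.67 and 7.60 in set 1 feed controls, against 4.70, 4.15, 3.76 and 3.98 in set 2 feed controls. In corn oil controls it measured 7.33, 7.38 and 7.21 in set 1, against a lowest of 3.64, a median of 3.84 and a highest of 5.81 in set 2. No set 1 array overlapped a set 2 array, as the choice required. The set difference was called in feed (adjusted p = 6.49e-11) and in corn oil (adjusted p = 2.19e-12), and the second probe set of Zfp62 moved the same way.

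Aspn, which encodes the matrix protein asporin, measured 6.94, 7.34 and 7.19 in set 1 feed controls, against 4.79, 4.06, 3.52 and 3.99 in set 2. Its corn oil values were 7.43, 7.23 and 7.52 in set 1, against 3.37 to 5.77 in set 2 with a median of 4.02. Again no set 1 array overlapped a set 2 array of its vehicle, as the choice required. Pgm2l1, a glucose 1,6-bisphosphate synthase, measured 8.31, 8.89 and 8.60 in set 1 feed controls, against 6.27, 5.45, 5.72 and 5.69 in set 2. The corn oil controls gave 8.66, 9.31 and 8.63 in set 1, against 4.93 to 7.58 in set 2. It rose by 2.82 in feed and 2.99 in corn oil by the probe set used, while its second probe set moved by 0.81 and 1.26, so the size depended on the probes.

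The mitochondrially encoded ND5, a subunit of respiratory complex I, measured 13.32, 13.54 and 13.54 in set 1 feed controls, against 11.13, 10.73, 10.01 and 11.18 in set 2. Corn oil arrays showed 13.61, 13.71 and 13.43 in set 1, against 10.12 to 12.37 in set 2 with a median of 11.12. The differences were 2.70 (SE 0.453) and 2.36 (SE 0.401), without overlap in either vehicle, as the choice required. Treated arrays, which the choice did not use, did not overlap between the sets. The other genes of the 15 largest rises were Zfp946, Zfp386, Ccdc88a (an actin-binding guanine nucleotide exchange factor), Zfp101, Pcdh17 (a protocadherin), Ttc14, AI987944, Zfp760, Ccdc66 (a ciliary protein), Nipbl (the cohesin loader) and Zfp51. Nipbl rose by 2.27 in feed and 2.72 in corn oil, and Zfp386 by 3.01 and 2.67. Of the 9 among the 15 that had further probe sets, all 9 moved the same way on every one, and in 8 another was called in both vehicles. The second probe set of Zfp101 differed by only 0.16 and 0.12 (limma adjusted p = 0.304 and 0.374).

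**Figure D3:**
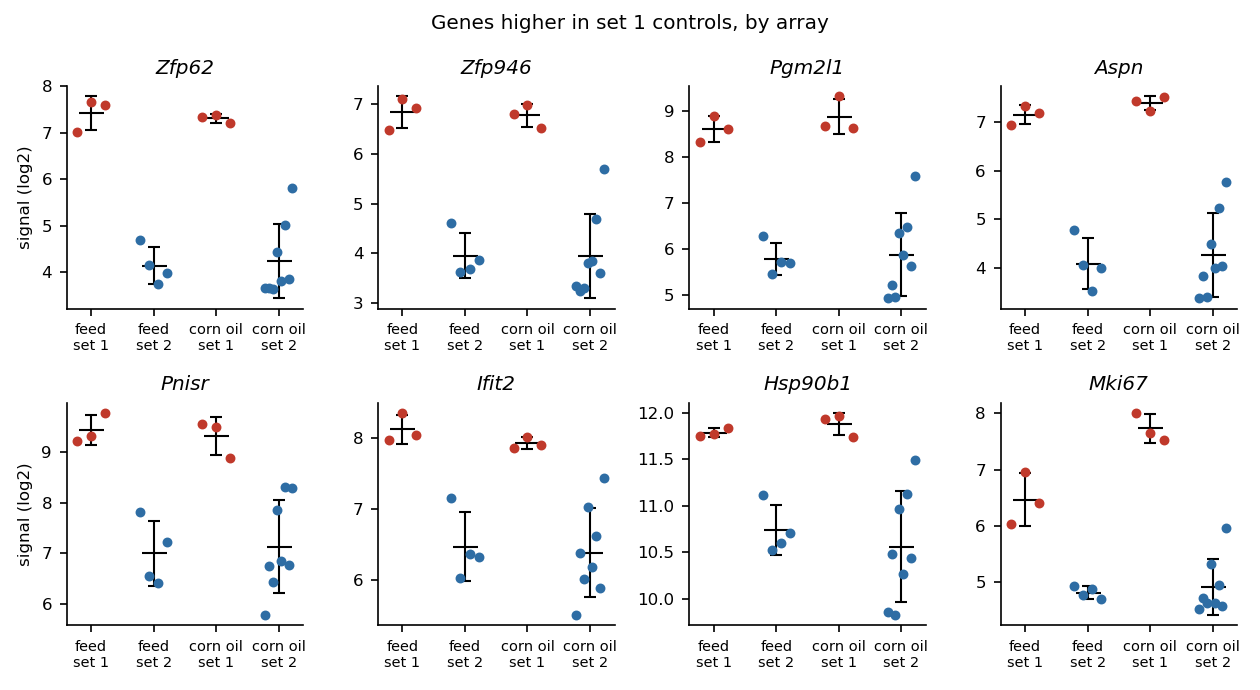
Log2 signal of 8 agreed genes higher in set 1, 1 point per array, with the mean and SD of each group in black. In every panel the red points of set 1 lie above the blue points of set 2 within the same vehicle.

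Zinc finger genes were numerous among the rises, a group picked after its values were seen. Proteins of this family bind DNA through their zinc fingers, and many carry a KRAB domain that recruits repressors. Of 286 genes tested whose symbol starts with Zfp, 87 agreed higher in set 1 (30.4%, against 11.7% of all genes) and 49 lower (17.1%, against 24%). The median difference was 0.05 in feed and 0.08 in corn oil, against -0.15 and -0.16 over all genes. On chromosome 17, which carries clusters of such genes, 24 of 35 agreed higher (68.6%) and 3 lower (8.57%), with medians of 0.82 and 1.08. Zfp946, Zfp101, Zfp760 and Zfp51 of the largest rises are among them. The 678 other genes tested on chromosome 17 gave 38 higher and 205 lower (5.6% and 30.2%, against 11.7% and 24% of all genes). On the other chromosomes 63 of 251 Zfp genes agreed higher (25.1%) and 46 lower (18.3%), with medians of -0.003 and 0.04. Genes within such clusters are similar in sequence, and probe sets could share signal between them. With centred arrays 104 of the 286 agreed higher and 32 lower.

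Splicing factors and RNA-binding proteins agreed higher in set 1 for 23 of 38 genes tested (60.5%, against 11.7% of all genes) and lower for 3. The median difference of the list was 0.56 in feed and 0.56 in corn oil. Pnisr, a serine and arginine rich nuclear protein, measured 9.22, 9.32 and 9.78 in set 1 feed controls, against 7.81, 6.56, 6.41 and 7.23 in set 2. In corn oil it measured 9.55, 9.50 and 8.89 in set 1, against 5.79 to 8.30 in set 2 with a median of 6.81. It rose by 2.44 (SE 0.423) in feed and 2.18 (SE 0.375) in corn oil, and all 6 of its other probe sets moved the same way. Luc7l3, a U1 small nuclear ribonucleoprotein factor, rose by 1.66 and 1.72, Luc7l2 by 1.51 and 1.58, and the kinase Clk1, which phosphorylates splicing factors, by 1.42 and 1.36. The 3 members that fell were Clk2, Clk3 and Srsf4. Clk3 fell by 0.49 and 0.42 and Srsf4 by 0.35 and 0.32, while the feed call of Clk2 was lost without animal 28 or 29 of set 1 or animal 43, 44 or 45 of set 2 and with centred arrays (adjusted p = 0.365). With centred arrays the counts were 25 higher and 2 lower.

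Among nuclear-retained and noncoding RNAs 3 of 12 agreed higher (25%, against 11.7% of all genes) and 1 lower (8.33%, against 24%). The counts were 5 higher and 0 lower with centred arrays, 4 and 0 with the mean over probe sets, and 2 and 2 with repeated quantile normalization. Tug1, a long noncoding RNA, rose by 1.14 in feed and 1.30 in corn oil. Neat1, the scaffold of paraspeckles, rose by 0.79 and 0.61 on the probe set used, its corn oil call was lost without animal 22 or 24 of set 1 (adjusted p = 0.0509 and 0.0511), and its second probe set differed by -0.11 and -0.06. The call of the imprinted Meg3 was lost in both vehicles with the mean over its probe sets (adjusted p = 0.163 and 0.256), and in feed also without animal 27 or 29 of set 1 or animal 42, 44 or 45 of set 2. The member lower in set 1 was Snhg1, a host gene of small nucleolar RNAs. Its corn oil call was lost without any 1 of the 3 set 1 arrays, without animal 95, 99, 132 or 134 of set 2, with the mean over its probe sets (adjusted p = 0.259) and with centred arrays (adjusted p = 0.196). With only the 10 ul feed controls of set 2, Tug1 was not called in feed (1.05, adjusted p = 0.051). With the RNA integrity covariate, neither Tug1 (adjusted p = 0.0715) nor Clk1 (adjusted p = 0.115) was called in corn oil.

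Interferon response genes agreed higher for 6 of 22 (27.3%, against 11.7% of all genes) and lower for none (0 of 22, against 24%, with 0 called lower in feed and 2 in corn oil). Ifit2, an antiviral tetratricopeptide repeat protein, measured 7.97, 8.35 and 8.04 in set 1 feed controls, against 7.15, 6.02, 6.36 and 6.32 in set 2. Its corn oil values were 7.85, 8.02 and 7.90 in set 1, against 5.50 to 7.43 in set 2 with a median of 6.28. Ifit2 rose by 1.66 (SE 0.306) and 1.54 (SE 0.271), Ifih1, a double-stranded RNA sensor, by 1.44 and 1.69, and the guanylate binding protein Gbp3 by 1.34 and 1.35. Ifit1, Ifit3 and Ddx58 were the other agreed members. The feed call of Ifit1 was lost without animal 28 of set 1 or 44 of set 2, and that of Ddx58 without animal 28 or 29 of set 1 or 43 or 44 of set 2. Of the classical members Mx1 differed by 0.23 and 0.19 (adjusted p = 0.257 and 0.258) and Oas1a by -0.16 and -0.32, neither of them called in either vehicle. Irf7 and Usp18 were not called on the deposited scale either, but both were called lower in set 1 under some alternatives, Irf7 in corn oil with only the 18 control arrays and Usp18 in feed with repeated quantile normalization. The list median was 0.20 in feed and 0.08 in corn oil. Between treated groups 7 of the 22 were called higher in set 1 and 6 lower (against 23.7% and 51.1% of all genes), with a median of 0.08.

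Hepatocyte products were prominent among the largest falls. Alb, serum albumin, measured 5.75, 5.02 and 5.41 in set 1 feed controls, against 9.73, 11.17, 8.92 and 10.03 in set 2. The corn oil controls gave 5.16, 5.10 and 5.61 in set 1, against a lowest of 7.03, a median of 8.05 and a highest of 11.18 in set 2. The ranges did not overlap in either vehicle, as the choice required, and the set 2 values were themselves widely spread. The difference was -4.57 in feed (SE 0.921, adjusted p = 0.000108) and -3.29 in corn oil (SE 0.816, adjusted p = 0.000615). Treated set 1 arrays lay at 5.06 to 5.86 and treated set 2 arrays at 5.70 to 12.28, so those ranges did overlap.

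The protease inhibitors Serpina1b and Serpina1c were called lower in set 1 in both vehicles, from set 1 signals near or under the filter level. The high-density lipoprotein component Apoa2 fell by 3.37 in feed (SE 0.785) and by 1.69 in corn oil (SE 0.696, adjusted p = 0.0354). Apoc3, an inhibitor of lipoprotein lipase, was also called lower in both, with set 1 means under the filter level. These calls rest on single arrays in part. In corn oil, Apoa2 was no longer called without animal 22, 24 or 25 of set 1 or animal 59 or 99 of set 2 (adjusted p 0.0745 to 0.0979), and Serpina1c was no longer called without animal 22 or 24 (adjusted p = 0.0705 and 0.0512). In feed, Apoc3 was no longer called without animal 43 of set 2 (adjusted p = 0.0746). With only the 10 ul feed controls of set 2, neither Serpina1c (adjusted p = 0.0665) nor Apoc3 (adjusted p = 0.167) was called in feed. With array weights or centred arrays, Apoa2 was not called in corn oil (adjusted p = 0.0651 and 0.0527). With the RNA integrity covariate Serpina1b, Serpina1c, Apoa2 and Apoc3 were not called in corn oil (adjusted p = 0.139, 0.184, 0.178 and 0.106).

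Of 15 hepatocyte genes tested, 12 were lower in set 1 in feed and 7 in corn oil, none higher, and the 7 (46.7%, against 24% of all genes) agreed. With centred arrays 4 of the 15 agreed lower. The list's mean signal was 4.93 to 5.28 in the 6 set 1 controls and 5.60 to 8.37 in the 12 set 2 controls. These 7 were Alb, Serpina1b, Serpina1c, Apoa2, Rbp4, Ttr and Apoh; Apoc3 is not on the list. Of these, Rbp4, Ttr and Apoh also lost their corn oil call without animal 22 of set 1 (adjusted p = 0.115 for Rbp4), Ttr and Apoh in addition without animal 24 of set 1, without animal 59, 99 or 132 of set 2 and with centred arrays, Ttr without animal 134 of set 2, and Apoh without animal 25 of set 1. In feed Ttr lost its call without animal 43 of set 2. Cyp2e1, which lung also expresses, differed by -0.62 in feed (adjusted p = 0.361) and 0.34 in corn oil (adjusted p = 0.555). Erythroid genes, which mark blood, gave 0 calls among 9 in either vehicle, against 41.5% of all genes in feed and 55.5% in corn oil. Their mean was 7.57 to 8.58 in set 1 controls and 7.36 to 8.69 in set 2 controls. Between treated groups 4 of the 9 were called higher in set 1 and 1 lower (against 23.7% and 51.1% of all genes). The part of the hepatocyte transcripts in other differences was not tested.

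**Figure D4:**
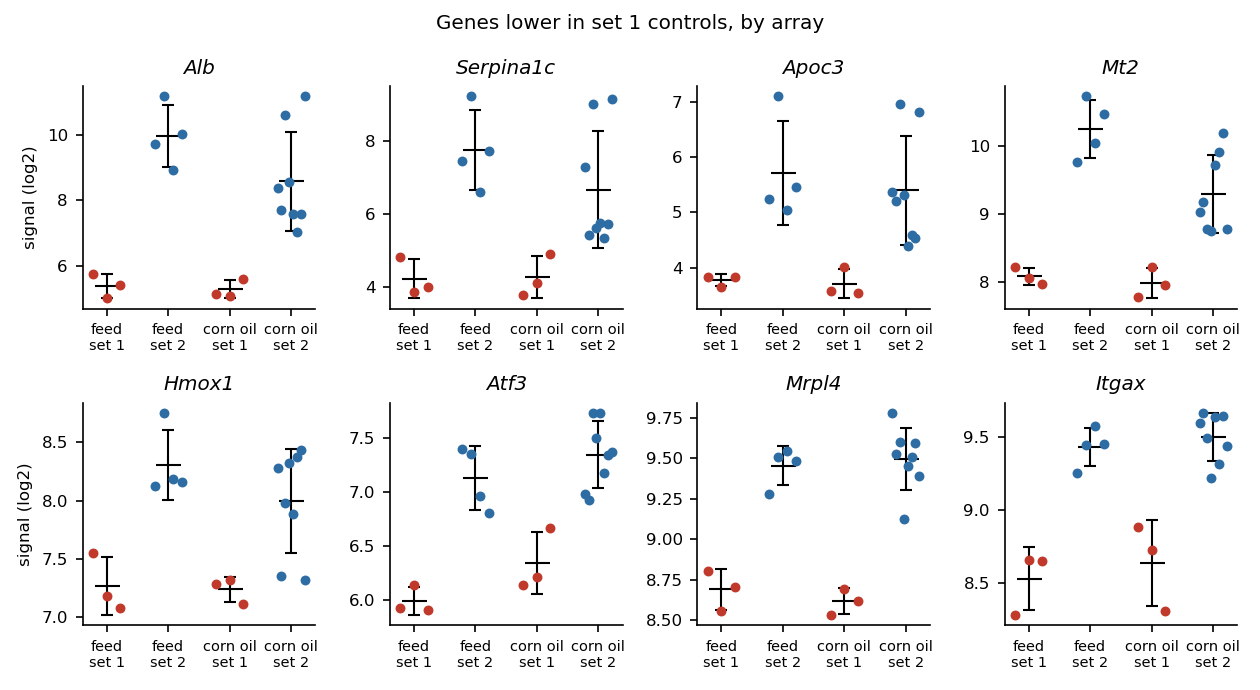
Log2 signal of 8 agreed genes lower in set 1, 1 point per array, with the mean and SD of each group in black. All red points of set 1 lie below all blue points of set 2 in the same vehicle, and the spread within set 2 is widest for the hepatocyte products Alb, Serpina1c and Apoc3.

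The metallothioneins Mt1 and Mt2, small cysteine-rich proteins that bind zinc, fell together. Their genes are neighbours on chromosome 8, and both are known to be switched on through the metal response element, bound by Mtf1. Their RefSeq promoters (GRCm38.p6, plus strand, 250 bases before to 50 after the start) are shown because the 2 genes moved together. Capitals mark matches to the core TGCACNC or TGCGCNC on either strand.
Mt1, chr8:94178839-94179138: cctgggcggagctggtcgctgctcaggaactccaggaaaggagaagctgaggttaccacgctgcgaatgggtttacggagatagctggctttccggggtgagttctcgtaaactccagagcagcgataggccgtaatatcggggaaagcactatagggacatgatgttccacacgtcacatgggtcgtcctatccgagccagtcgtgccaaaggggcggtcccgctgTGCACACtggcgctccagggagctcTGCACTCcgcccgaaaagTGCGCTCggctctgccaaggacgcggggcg
Mt2, chr8:94172368-94172667: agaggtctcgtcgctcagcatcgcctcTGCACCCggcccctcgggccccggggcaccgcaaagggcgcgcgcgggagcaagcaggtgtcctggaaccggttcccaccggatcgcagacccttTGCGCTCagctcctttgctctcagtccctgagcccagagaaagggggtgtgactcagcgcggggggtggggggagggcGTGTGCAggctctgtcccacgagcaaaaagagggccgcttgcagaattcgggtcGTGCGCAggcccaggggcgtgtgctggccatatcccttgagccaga
The window of Mt1 holds 3 matches, all on the strand shown, and that of Mt2 holds 4, of which 2 are on the other strand. No matches overlap. At least 1 match is present in 25.7% of the 32851 promoters of the same length, and at least 3 in 1.97%. A match is a run of letters and not a measured binding site.

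Mt2 measured 8.22, 8.06 and 7.96 in set 1 feed controls, against 9.76, 10.73, 10.04 and 10.46 in set 2. Corn oil arrays showed 7.77, 8.22 and 7.95 in set 1, against 8.75 to 10.19 in set 2 with a median of 9.10. Every set 1 array lay below every set 2 array of its vehicle, as the choice of the largest falls required. Mt2 fell by 2.17 in feed (SE 0.427, adjusted p = 8.41e-05) and by 1.31 in corn oil (SE 0.379, adjusted p = 0.00285). Mt1 measured 9.91, 9.60 and 9.49 in set 1 feed controls, against 10.73, 11.33, 10.88 and 10.92 in set 2, and fell by 1.30 (SE 0.274) and by 0.96 in corn oil (SE 0.243). Liver also makes both proteins. Of the metallothionein and iron genes as a list, 3 of 11 agreed lower (27.3%, against 24% of all genes) and 2 higher (18.2%, against 11.7%). The higher count was 3 with centred arrays and 0 with the mean over probe sets.

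The 15 largest falls further held genes of unlike function. Ap2b1, a clathrin adaptor subunit, measured 7.36, 7.23 and 6.27 in set 1 feed controls, against 8.47, 8.89, 8.36 and 8.76 in set 2, and fell by 1.66 and 1.80. The long noncoding RNA Lncpint measured 5.35, 4.30 and 4.10 in set 1 feed controls, against 6.00, 6.21, 5.80 and 5.81 in set 2, and fell by 1.37 and 1.39. The other 2 probe sets of Ap2b1 differed by -0.35 and -0.28 and by -0.15 and -0.19, so the size is that of 1 probe set. Eml2, a microtubule-associated protein, fell by 1.62 and 2.04. Acaa1b, a peroxisomal thiolase of fatty acid oxidation, fell by 1.60 and 1.32. Tpcn2, a lysosomal two-pore channel, measured 5.76, 5.81 and 5.43 in set 1 feed controls, against 6.83, 6.86, 7.02 and 6.77 in set 2, and all 18 set 1 arrays lay below all 52 set 2 arrays. Osgin1, an oxidative stress-induced growth inhibitor, fell by 1.26 and 1.36, Tent5b, a noncanonical poly(A) polymerase, by 1.32 and 1.39, and the neurotrophin gene Ntf5 by 1.14 and 1.29. Hnrnpab fell by 1.27 and 1.14 on the probe set used. Of its other 6 probe sets, 1 was higher by 0.27 and 0.31 and called so in both vehicles. Another, with a mean of 4.33 near the filter level, differed by -0.30 and -0.33 and was called lower in both. The gene thus has no single direction.

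Mitochondrial ribosomal proteins agreed lower in set 1 for 29 of 49 genes (59.2%, against 24% of all genes) and higher for none, with medians of -0.36 in feed and -0.33 in corn oil. Mrpl4 measured 8.81, 8.56 and 8.70 in set 1 feed controls, against 9.28, 9.51, 9.54 and 9.49 in set 2. In corn oil it measured 8.53, 8.69 and 8.62 in set 1, against 9.12 to 9.78 in set 2 with a median of 9.52. The groups did not overlap, and Mrpl4 fell by 0.77 (SE 0.111) and 0.88 (SE 0.0987). Mrps25 fell by 0.76 and 0.72 and Mrpl28 by 0.74 and 0.69. Oxidative phosphorylation subunits encoded in the nucleus agreed lower for 15 of 48 (31.2%, against 24% of all genes) and higher for 2 (4.17%, against 11.7%). Cox5a of cytochrome c oxidase fell by 0.66 and 0.69, and Ndufs7 of complex I by 0.55 and 0.54, while the mitochondrially encoded ND5 rose. With centred arrays the mitochondrial ribosomal counts were 16 lower and 1 higher, and those of the oxidative phosphorylation subunits 7 lower and 3 higher.

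NRF2 antioxidant and glutathione genes, which the transcription factor NRF2 switches on under electrophile stress, agreed lower for 13 of 28 (46.4%, against 24% of all genes) and higher for none. Their median was -0.38 in feed and -0.30 in corn oil. Hmox1, heme oxygenase 1, measured 7.55, 7.17 and 7.07 in set 1 feed controls, against 8.13, 8.76, 8.19 and 8.16 in set 2. Its corn oil values were 7.28, 7.31 and 7.11 in set 1, against 7.32 to 8.44 in set 2 with a median of 8.13. The groups did not overlap, but the corn oil ranges were separated by a narrow gap. Hmox1 fell by 1.04 (SE 0.255) and 0.76 (SE 0.226), and was not called in corn oil with the RNA integrity covariate (adjusted p = 0.0992), nor was Gsta2 (adjusted p = 0.128). The glutathione transferase Gsta2 fell by 0.77 and 0.57, and was no longer called in corn oil without animal 22 of set 1 (adjusted p = 0.0501). Srxn1, sulfiredoxin, fell by 0.74 and 0.52. Between treated groups the list's median was -0.01, with 7 members higher and 10 lower. With centred arrays 9 members agreed lower and none higher.

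Immediate early genes, transcribed within minutes of a stimulus, agreed lower for 9 of 19 (47.4%, against 24% of all genes) and higher for 1, which was Klf6, named after its values were seen, whose feed call was lost without animal 29 of set 1 (adjusted p = 0.109). Atf3, a stress-induced transcription factor, measured 5.93, 6.14 and 5.90 in set 1 feed controls, against 7.40, 7.36, 6.96 and 6.80 in set 2. The corn oil controls gave 6.14, 6.21 and 6.67 in set 1, against 6.93 to 7.74 in set 2 with a median of 7.36. Atf3 fell by 1.14 (SE 0.252) and 1.01 (SE 0.223), Maff, a small Maf factor, by 1.18 and 0.96, and Junb by 0.72 and 0.94. Without animal 29 of set 1 Junb was no longer called in feed (adjusted p = 0.072). Fos and Egr1, which many such responses include, were not called. Fos differed by -0.21 and -0.59 (adjusted p = 0.611 and 0.0579), and its corn oil difference was called with only the 18 control arrays (adjusted p = 0.0255), with repeated quantile normalization (adjusted p = 0.0424) and without animal 132 of set 2 (adjusted p = 0.0303). Egr1 differed by -0.26 and -0.06. With centred arrays 6 members agreed lower and 1 higher.

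Endoplasmic reticulum stress and amino acid response genes agreed lower for 10 of 20 (50%, against 24% of all genes) and higher for 1. Atf4, the transcription factor of the amino acid response, fell by 0.58 and 0.57. Sesn2, a leucine sensor that it induces, measured 6.11, 6.26 and 6.19 in set 1 feed controls, against 6.59, 7.23, 7.20 and 6.94 in set 2, and fell by 0.80 (SE 0.151) and 0.88 (SE 0.134). The member that rose was Hsp90b1, the chaperone of the endoplasmic reticulum lumen. It measured 11.75, 11.77 and 11.84 in set 1 feed controls, against 11.12, 10.52, 10.60 and 10.71 in set 2, and rose by 1.05 (SE 0.279) and 1.32 (SE 0.248). With centred arrays 5 members agreed lower and 2 higher.

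Hypoxia-induced genes agreed lower for 5 of 17 (29.4%, near the 24% of all genes) and higher for none, with 4 lower and 1 higher in centred arrays. Slc2a1, the glucose transporter of most cells, fell by 0.75 and 0.73, Ndrg1 by 0.74 and 0.62, and Pfkfb4, which regulates glycolysis, by 0.61 and 0.68. Of 9 genes listed for selenoproteins and their handling 5 agreed lower (55.6%, against 24% of all genes) and none higher, with 3 lower and 1 higher in centred arrays. Selenow fell by 0.49 and 0.63, but the mean over its probe sets differed by only -0.19 in feed (adjusted p = 0.148). The mitochondrial thioredoxin reductase Txnrd2 fell by 0.59 and 0.80. In Pfkfb4 and in the Selenow probe set used, all 18 set 1 arrays lay below all 52 set 2 arrays.

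**Figure D5:**
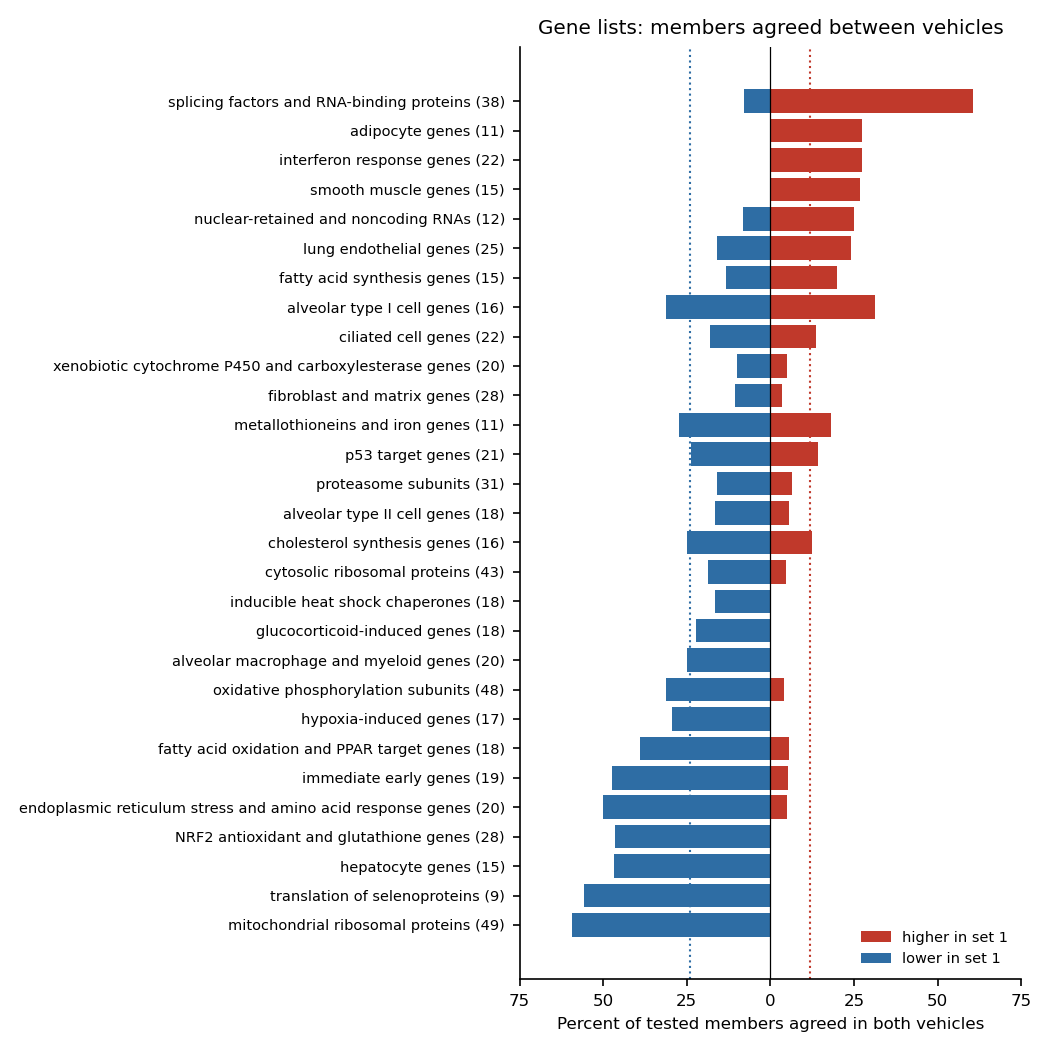
Percent of the tested members of each gene list that agreed higher (red, to the right) or lower (blue, to the left) in set 1, for the 29 lists of 8 or more tested genes in which at least 3 members agreed, with the number tested in parentheses. Dotted lines mark the 11.7% and 24% of all genes tested. Splicing factors exceed the line on the right by the widest margin, and mitochondrial ribosomal proteins the line on the left.

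Of the macrophage genes, 5 of 20 agreed lower (25%, against 24% of all genes) and none higher. The list's median difference was -0.52 in feed and -0.50 in corn oil, against -0.15 and -0.16 over all genes. Itgax, the CD11c integrin of alveolar macrophages, measured 8.28, 8.66 and 8.65 in set 1 feed controls, against 9.25, 9.45, 9.57 and 9.45 in set 2, and fell by 0.90 (SE 0.162) and 0.86 (SE 0.144). The lysozymes Lyz1 and Lyz2, which break down bacterial cell walls, differed by 0.08 and 0.09 and by -0.03 and -0.02 and were not called, though Lyz1 was called higher in both vehicles with centred arrays. With centred arrays 1 macrophage gene agreed lower and 1 higher. Airway secretory products, erythroid, neutrophil, mast cell and mesothelial genes gave 0 agreed members of 18, 9, 16, 6 and 13 tested, against 35.6% of all genes.

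Epithelial and endothelial lists split within themselves. In alveolar type I cells 5 of 16 genes agreed higher and 5 lower (31.2% each, against 11.7% and 24% of all genes). Akap5, a kinase anchoring protein, rose by 0.99 and 0.79 and Clic5, a chloride intracellular channel protein, by 0.78 and 0.83, while Igfbp2, an insulin-like growth factor binding protein, fell by 0.80 and 0.95. In endothelium 6 of 25 agreed higher (24%, against 11.7%) and 4 lower (16%, against 24%). The transcription factor Erg rose by 1.38 and 1.11, the adrenomedullin receptor subunit Calcrl by 1.25 and 1.09, and the endothelin receptor Ednrb by 1.10 and 0.87. With centred arrays the endothelial counts were 7 higher and 1 lower. In ciliated cells 3 of 22 agreed higher (13.6%, against 11.7% of all genes) and 4 lower (18.2%, against 24%), with 3 and 1 in centred arrays. Ccdc39, an axoneme ruler protein, measured 7.05, 7.07 and 6.67 in set 1 feed controls, against 5.37, 4.76, 4.29 and 4.64 in set 2, and rose by 2.17 (SE 0.393) and 2.37 (SE 0.349). Dnah5, an outer dynein arm heavy chain, rose by 1.04 and 1.23. Of 18 alveolar type II genes 1 agreed higher and 3 lower on the deposited scale (5.56% and 16.7%, against 11.7% and 24% of all genes). With centred arrays 6 agreed higher and 0 lower, so their direction hangs on the scaling. The fatty acid transporter Cd36, the agreed member that rose, did so by 0.97 and 1.02. With only the 10 ul feed controls of set 2 Cd36 was not called in feed (0.81, adjusted p = 0.0619), nor was it in corn oil with the RNA integrity covariate (1.02, adjusted p = 0.0593).

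In stromal and lymphoid lists some genes rose. B cell markers agreed higher for 2 of 10 (20%, against 11.7% of all genes) and thymocyte genes for 2 of 7 (28.6%). None of either list agreed lower, against 24% of all genes. In smooth muscle 4 of 15 agreed higher (26.7%, against 11.7% of all genes) and none lower. Hhip, which binds hedgehog ligands, measured 8.28, 8.93 and 8.08 in set 1 feed controls, against 6.67, 6.28, 5.82 and 6.15 in set 2, and rose by 2.20 (SE 0.297) and 2.00 (SE 0.264). Synpo2, an actin-binding protein, rose by 1.37 and 1.48. Of 28 fibroblast and matrix genes 1 agreed higher (3.57%, against 11.7% of all genes), the matricellular Postn by 1.84 and 1.92. In the same list 3 agreed lower (10.7%, against 24%). Mfap4, a protein of elastic fibres, measured 10.80, 10.78 and 10.72 in set 1 feed controls, against 11.71, 11.84, 12.01 and 12.02 in set 2, and fell by 1.13 (SE 0.168) and 0.97 (SE 0.149). Il7r, the interleukin 7 receptor, was the agreed member of 22 T and natural killer cell genes (4.55% higher, against 11.7% of all genes). It measured 7.77, 8.07 and 8.00 in set 1 feed controls, against 7.01, 6.08, 5.95 and 6.01 in set 2, and rose by 1.69 (SE 0.321) and 1.81 (SE 0.285).

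Of 11 adipocyte genes Lpl, Thrsp and Scd1 agreed higher (27.3%, against 11.7% of all genes). With only the 10 ul feed controls of set 2, Scd1 was not called in feed (adjusted p = 0.0741). Lpl, lipoprotein lipase, rose by 1.27 and 1.41 and Thrsp, a regulator of fat synthesis, by 1.35 and 1.38. Without the 10 ul feed controls of set 2, Thrsp was not called in feed (0.99, adjusted p = 0.0583). Adipoq, the defining adipocyte product, differed by 1.57 in feed (adjusted p = 0.371) and 2.82 in corn oil (adjusted p = 0.0441), and the corn oil call was lost without any 1 of the 3 set 1 arrays and without animal 59, 60, 132 or 134 of set 2. The mean of the 11 genes was 7.92 to 9.47 in set 1 controls and 6.57 to 9.07 in set 2 controls, and its part in the values of Lpl was not tested.

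Of 20 cell cycle genes 1 agreed higher (5%, against 11.7% of all genes) and none lower (against 24%). The agreed gene was Mki67, a coat protein of mitotic chromosomes. It measured 6.04, 6.97 and 6.40 in set 1 feed controls, against 4.93, 4.77, 4.87 and 4.69 in set 2. Corn oil arrays showed 8.01, 7.66 and 7.52 in set 1, against 4.52 to 5.96 in set 2 with a median of 4.67. Mki67 rose by 1.65 (SE 0.297) and 2.82 (SE 0.263). In feed Mki67 was the 1 member called higher (against 12.6% of all genes), and 2 members were called lower (against 28.8%). Top2a differed there by 0.57 (adjusted p = 0.117) and Ccnb2 by -0.44, neither of them called. Cdk1 differed by -0.45 in feed and was called lower there with array weights. In corn oil 8 of the 20 were higher in set 1 (against 18.9% of all genes), among them Top2a by 1.76.

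The direction of a gene was mostly shared by its other probe sets. Among agreed genes higher in set 1, 1173 had another probe set and in 74.1% of them all others pointed the same way; a second one passed in both vehicles in 70.7%. Among agreed genes lower in set 1 these shares were 78.9% and 47.8% of 1624 genes. Over all genes tested with another probe set, 60.4% had all others in one direction with the probe set used, and in 34% another probe set agreed between vehicles.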

How the data were processed

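Lung RNA of 70 animals was measured on Affymetrix mouse genome arrays, per the labels. The values are log2 signals per probe set as deposited by the authors (2.47 to 14.5). Their summarization and normalization are not stated in those sources. The number of arrays limits the precision.

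A gene's value was that of its probe set with 1 symbol and the highest mean, and genes with a mean above the 30th percentile (4.25) were kept, 14593 of 18193. Of 45101 probe sets, 64 were controls, 34945 had 1 symbol, 932 several and 9160 none; 18032 genes matched RefSeq GRCm38.p6. limma 3.58.1 in R 4.3.3 fitted 1 mean per group (18 groups) over 70 arrays, with calls at a Benjamini-Hochberg adjusted p under 0.05 within each contrast. The fit was tested on simulated data. Array measures were compared by exact permutation of set labels within vehicle (numpy 2.4.6).

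Named genes are the 15 largest rises and 15 largest falls by the smaller vehicle difference, among agreed genes with no overlap; up to 4 agreed members per list by the same measure; and listed members that did not pass. Members and the 52 gene lists were chosen with earlier results of these data known. Lists are described by counts and medians, without set tests. Filters, probe-set averaging, repeated quantile normalization, narrower fits, array weights, covariates, RNA volumes and leaving out each array were tried, and centring and the fit without covariate were added after seeing the data. Each array is a separate animal.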

Additional observations from a re-analysis of the deposited data

Results flagged for a closer look

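Single genes and array measures were examined in the set 2 feed controls (4 arrays) and the set 2 corn oil controls (8 arrays). Of these 238 groups of values, 11 held an array set apart from the rest. The rule was the gap to its nearest neighbour as a share of the range. Groups of set 1, with 3 arrays each, were not examined. The RNA integrity number of set 2 feed controls, given for 2 animals, is counted in the 238 but was not judged. Chance alone gives about 1 such group in 20, and these 11 are close to that share. The groups are read on the same arrays and are not independent, so that share is only a rough guide. Of the 11, 4 fell on animal 42. In set 2 feed controls, animal 42 was high for Il7r, at 7.01, and for Akap5, at 10.06, and it was low for Clk2, at 8.27, and for Srsf4, at 9.63. Animal 43 was high for Hmox1, at 8.76, and animal 45 low for the 18S ribosomal RNA 5' probe set, at 6.23. In set 2 corn oil controls, animal 95 was high for Hnrnpab, at 12.56, and for the hybridization controls, at 11.55. Animal 99 was high for Zfp386, at 6.50, animal 97 high for Srxn1, at 8.02, and animal 132 low for Clic5, at 10.23. All values are log2 signals.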

How the results depend on the processing

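No paired analysis was possible because the animal numbers are not shared between groups. Leaving out 1 array in turn gave 4584 to 6465 feed calls, 6715 to 8525 corn oil calls, 4085 to 5520 agreed genes, and 0 to 2 genes for the difference between vehicles (2 without animal 29 of set 1, 1 without animal 60 of set 2). That last count was 1 with only the 18 control arrays and 119 with array weights. With only the 10 ul feed controls of set 2 there were 3522 feed calls and 3256 agreed genes, while genes agreed in both vehicles, higher in set 1, numbered 877. With the RNA integrity number as a covariate (15 arrays) limma gave 0 feed calls (2224 at an unadjusted p under 0.05), 3138 corn oil calls (5491 unadjusted), and 0 agreed genes, so 0 higher and 0 lower. The same 15 arrays without it gave 856 feed calls, 4646 corn oil calls and 752 agreed genes, with 196 higher and 556 genes agreed in both vehicles, lower in set 1. Their set 2 feed controls are animals 42 and 44, which are also the 10 ul ones. Fewer arrays and the RNA volume thus cannot be told apart in that fit, and the cause of the loss was not tested. Centred arrays gave 2300 agreed genes higher and 2045 lower. Requiring 2-fold left 571 (531 higher, 40 lower), and requiring no overlap left 3415 (1119 higher, 2296 lower). Among the alternative values of 111 single genes, 6732 kept their call status, 323 lost the call and 23 gained one. With a call in either fit, 0 reversed direction. A change of sign without a call in either fit was counted as kept. Of the losses 119 came with the RNA integrity covariate, 61 with the same 15 arrays without it and 15 with only the 10 ul feed controls of set 2. Feed calls there rest on 3 arrays against 2.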

Other observations

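Of 20 chromosomes, 3 had more genes that agreed higher than lower in set 1. Chromosome 13 had 97 and 68 of 524 tested (18.5% and 13.0%), chromosome 18 had 56 and 52 of 353 (15.9% and 14.7%), and the third was chromosome X. Of its 420 genes tested, 113 agreed higher in set 1 (26.9%, against 11.7% of all genes) and 55 lower (13.1%, against 24%). This grouping was looked at after the values were known, and no test was run on it. Promoter windows of agreed genes had a median GC content of 62.0% for those higher in set 1 and 60.7% for those lower, against 60.0% for all genes tested with a promoter in the table.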
